A study of Mus musculus with 8 samples.

Results

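The course of osteogenic culture in the presence of LAMZ (locamidazole) was read from 4 of the 8 libraries of the series, the 2 day 14 LAMZ libraries and the 2 day 7 LAMZ libraries, which were chosen by their labels for compound and day. The series holds mouse osteoblast progenitors that the methods describe as calvarial cells of neonatal mice and the sample labels as MC3T3-E1, an osteoblastic cell line. All groups were kept in alpha-MEM with fetal bovine serum, ascorbic acid, dexamethasone and β-glycerophosphate, so the controls were in osteogenic medium as well. The LAMZ groups received 1 μmol·L−1 LAMZ and the control groups the vehicle DMSO, and each of the 4 groups (day 7 control, day 7 LAMZ, day 14 control and day 14 LAMZ) had 2 libraries. The labels give no genotype or age and do not say whether replicates were separate cultures, so p-values measure only the spread between these libraries.

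Osteoblast progenitors in such a medium stop dividing, deposit a collagen matrix, raise alkaline phosphatase and mineral-binding proteins, and in part become osteocytes, the cells enclosed in bone. Secretion of so much collagen loads the endoplasmic reticulum (ER) and the supply of amino acids, both of which are sensed by kinases that raise translation of the transcription factor ATF4. The comparison of day 14 with day 7 asks which of these programs moved while the compound was present.

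Values are RPKM, reads divided by gene length and by the library's mapped reads. The 4 LAMZ libraries held 4265037 to 5832101 mapped reads as recovered from the RPKM steps, and 3 reads on a gene of 1 kb correspond to 0.514 to 0.703 RPKM in them. Replicates correlated across the 12514 tested genes at r = 0.978 at day 7 and 0.98 at day 14, above the 0.939 to 0.946 between the days. The osteoblast markers Col1a1 and Alpl were present, with Col1a1 at 6049.9 to 9964 RPKM and Alpl at 188 to 398 RPKM in the 4 libraries, and Col2a1, a cartilage collagen, was also present at 238 to 367 RPKM. Reads of Rn7s1, a structural RNA of the signal recognition particle, made up 33.7% and 29.9% of the RPKM sum at day 7 and 23.9% and 26.7% at day 14.

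From day 7 to day 14 under LAMZ, genes of the amino acid stress response, ER chaperones, osteocalcin and other bone matrix genes rose, while genes of cell division, histones, cholesterol synthesis and imprinted growth genes fell. By limma on log2(RPKM + 1) with a Benjamini-Hochberg adjusted p under 0.05, 638 genes were higher (5.1% of all tested) and 1159 were lower (9.26%) at day 14, together 14.4%. Of these, 241 rose and 272 fell by at least 1 on the log2 scale. The median log2 change of all tested genes was -0.11, and 3969 genes had an unadjusted p under 0.05. In bulk libraries fewer cells of a type and less RNA per cell cannot be told apart.

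The split between rises and falls depended on the scaling between libraries. Rescaling each library to the same RPKM sum moved the median of all genes to 0.03 and gave 966 higher and 556 lower genes, centring on the median gave 923 and 906, and quantile normalization gave 812 and 858. Of the gene lists described below, those said to rise or fall kept the sign of their median under these 3 scalings. The number of calls also rested on each LAMZ library, with 607 and 488 genes called without day 7 replicate 1 and 2, and 811 and 498 without day 14 replicate 1 and 2.

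**Figure D1:**
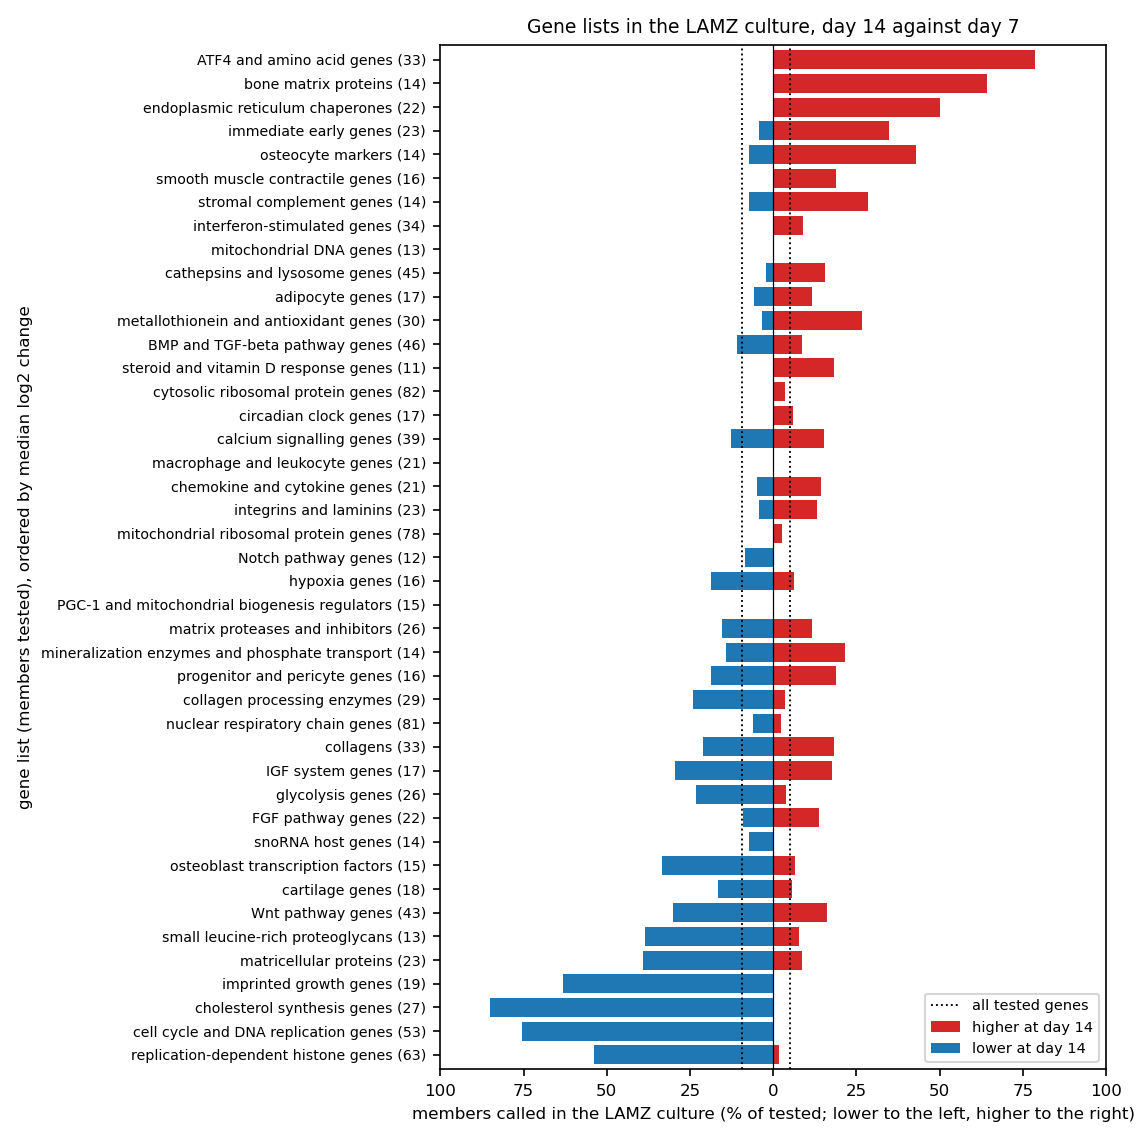
Share of the tested members of each gene list (lists with at least 10 tested members) called higher (red, right) or lower (blue, left) at day 14 in the LAMZ culture, as a percentage, with the shares over all tested genes (5.1% and 9.26%) as dotted lines. The ATF4 and amino acid list, bone matrix proteins and ER chaperones reach furthest to the right, and cholesterol synthesis, cell cycle, imprinted and histone genes furthest to the left. The lists were chosen with earlier results of these data known.

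The amino acid stress response rose as a group. This list and those below were drawn up with earlier results of these data known, so their counts describe the lists and are no separate support. Of 33 tested genes of the ATF4 and amino acid list, 26 were higher and 0 lower, all 33 had a positive log2 change, and their median log2 change was 1.28. Without single LAMZ libraries the count of higher members stayed between 20 and 22. In the control culture 8 of the 33 were higher (24.2%, against 2.46% of all tested genes) and the median was 0.23. In the test of the difference between the courses 9 were more positive with LAMZ (0.312% of all tested genes).

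Atf4 itself, the transcription factor that drives these genes, was at 64.3 and 63.7 RPKM at day 7 and 169.6 and 157 RPKM at day 14 (log2 change 1.34 ± 0.10 SE, adjusted p = 0.000552). Its day 14 libraries lay above both day 7 libraries by more than the gap between replicates, and in the control culture the level went from 57.1 and 55.3 to 68.9 and 69.3 RPKM (log2 change 0.29, adjusted p = 0.154). The course differed between the cultures by 1.04 ± 0.15 SE (adjusted p = 0.0369). This difference was no longer called when the replicate number was added to the fit, across all groups or within each culture. Differences between the courses are given from the main fit throughout, and with the replicate number added within each culture only Avil kept its call.

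Among partners and targets, Trib3, a pseudokinase that feeds back on ATF4, was at 6.29 and 2.35 RPKM at day 7 and 81.7 and 78.5 RPKM at day 14 (log2 change 4.04 ± 0.33 SE, adjusted p = 0.000628). Ddit3, which encodes the stress factor CHOP, was at 6.43 and 3.25 RPKM at day 7 and 60.1 and 47.1 RPKM at day 14 (log2 change 3.27, adjusted p = 0.000552), although its exons overlap those of Mars on the other strand. Nupr1, a small stress-induced chromatin protein, was at 10.4 and 9.70 RPKM at day 7 and 104 and 95.7 RPKM at day 14 (log2 change 3.19 ± 0.12 SE, adjusted p = 6.18e-05), with replicates closer together than those of Trib3 or Ddit3. These genes also rose in the control culture, with log2 changes of 2.44 for Trib3, 1.26 for Ddit3 and 1.52 for Nupr1, and only that of Nupr1 was called different between the courses (difference 1.67, adjusted p = 0.0216; Trib3 0.166, Ddit3 0.0602). Atf5, a factor related to ATF4, went from 12.7 and 12.5 to 77.0 and 87.0 RPKM with LAMZ and from 20.4 and 17.4 to 52.8 and 46.9 RPKM in the control culture, and the difference was called (adjusted p = 0.0369).

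Amino acid synthesis and uptake moved with them. Asns, asparagine synthetase, was at 13.7 and 11.7 RPKM at day 7 and 56.8 and 47.6 RPKM at day 14 (log2 change 1.95 ± 0.13 SE, adjusted p = 0.000381). Phgdh, the first enzyme of serine synthesis, was at 21.5 and 25.7 RPKM at day 7 and 69.5 and 63.4 RPKM at day 14 (log2 change 1.46, adjusted p = 0.00186). Phgdh was at 20.9 and 19.4 RPKM at day 7 and 15.7 and 21.4 RPKM at day 14 in the control culture, with overlapping days, and its courses differed (difference 1.59, adjusted p = 0.0369). Serine enzymes were not uniform, since Psph rose by 1.15 and Shmt2 by 0.60 on the log2 scale whereas Psat1, at 20.1 and 18.2 RPKM at day 7 and 26.2 and 19.6 RPKM at day 14, was not called (adjusted p = 0.387).

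Chac1, which degrades glutathione, went from 12.2 and 7.39 to 43.4 and 43.0 RPKM and rose in the control culture as well (log2 change 2.07 with LAMZ and 1.90 in the control, difference 0.17 ± 0.38 SE). Among transporters, the light and heavy chains of the large neutral amino acid carrier, Slc7a5 and Slc3a2, rose by 1.92 and 1.52 on the log2 scale. The glutamine carrier Slc1a5 went from 9.72 and 10.0 to 32.8 and 29.5 RPKM. The cationic amino acid carrier Slc7a3 went from 0.558 and 0.659 to 7.52 and 5.79 RPKM and the glycine transporter Slc6a9 from 2.28 and 1.49 to 22.3 and 19.7 RPKM. All 3 were more positive than in the control culture (adjusted p of the difference 0.0302, 0.0369 and 0.0287). Aminoacyl-tRNA synthetases, which charge tRNAs, were represented by Wars (1.33), Nars (1.21), Sars (1.21) and Aars (1.20), each past the threshold, and by Gars, whose log2 change of 0.58 was not (adjusted p = 0.0694). Of these 5, only Wars was called in the difference between the courses (adjusted p = 0.0355). Fgf21, a secreted stress hormone, was low throughout at 0.986 and 0.404 RPKM at day 7 and 4.69 and 3.02 RPKM at day 14 (log2 change 1.52, adjusted p = 0.0177). Adm2, a secreted peptide of the calcitonin family, went from 2.70 and 4.23 to 28.4 and 28.9 RPKM.

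Promoters of the list were searched because ATF4 with its C/EBP partners is known to bind TGATGNAA. RefSeq promoter sequences (GRCm38.p6) were matched for 26 of the 33 tested members, and 9 of them (34.6%) held TGATGNAA on either strand in the 250 bases before the start, against 2.30% of the 9039 tested genes with a promoter and 3.91% of all 27025 genes searched. The 250 bases are shown for 3 members that rose, with each match in capitals, Nupr1 from chr7:126625471-126625720 on the minus strand, Chac1 from chr2:119350992-119351241 on the plus strand and Asns from chr6:7693210-7693459 on the minus strand.
Nupr1: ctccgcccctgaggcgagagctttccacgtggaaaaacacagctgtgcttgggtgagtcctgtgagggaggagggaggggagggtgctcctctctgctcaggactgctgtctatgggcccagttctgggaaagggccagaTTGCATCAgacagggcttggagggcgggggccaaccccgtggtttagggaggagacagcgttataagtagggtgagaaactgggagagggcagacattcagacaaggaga
Chac1: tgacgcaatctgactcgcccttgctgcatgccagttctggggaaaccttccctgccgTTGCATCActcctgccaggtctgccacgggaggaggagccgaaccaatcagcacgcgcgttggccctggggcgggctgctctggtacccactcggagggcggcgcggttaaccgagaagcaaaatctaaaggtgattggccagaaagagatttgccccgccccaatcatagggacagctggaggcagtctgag
Asns: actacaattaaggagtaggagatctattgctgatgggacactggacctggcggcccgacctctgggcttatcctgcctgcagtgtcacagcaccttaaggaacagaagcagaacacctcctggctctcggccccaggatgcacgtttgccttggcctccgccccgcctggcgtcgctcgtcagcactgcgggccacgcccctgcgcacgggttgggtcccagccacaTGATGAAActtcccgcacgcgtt
Each of these windows held 1 match. The other members with a match were Pycr1, Fgf21, Got1 and Aars, which were called higher, and Gars and Vldlr, which were not called. A match is a run of letters and was not tested as a binding site. The list was drawn up around ATF4, so its excess of matches follows from the choice of members and says nothing about these libraries.

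**Figure D2:**
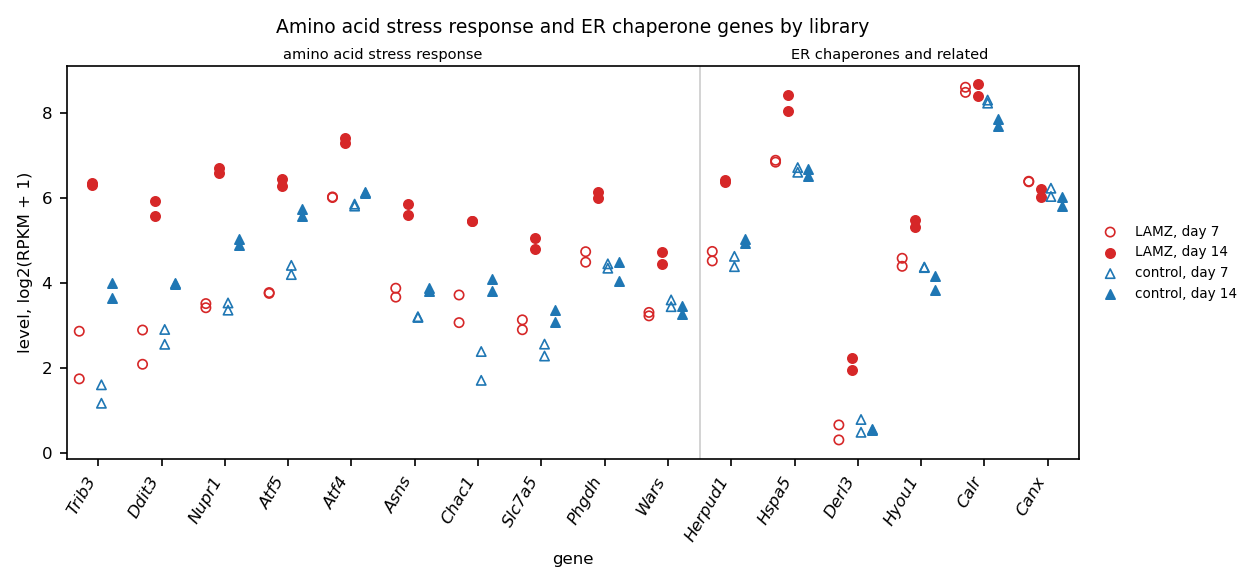
Level on the log2(RPKM + 1) scale (y axis) of amino acid stress response and ER chaperone genes (x axis) in each library, with LAMZ libraries as red circles and control libraries as blue triangles, open at day 7 and filled at day 14. The filled red circles stand above the open ones for every gene drawn except Calr and Canx.

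ER chaperones and their companions rose in part. Of 22 tested genes, 11 were higher and 0 lower, with a median log2 change of 0.55, while in the control culture limma called 0 (6 at an unadjusted p under 0.05) and the median was -0.14. The number higher with LAMZ was 4 and 4 without day 7 replicate 1 and 2 and 6 and 5 without day 14 replicate 1 and 2. Hspa5, the major ER chaperone BiP, was at 114 and 118 RPKM at day 7 and 346 and 263 RPKM at day 14 (log2 change 1.37 ± 0.15 SE, adjusted p = 0.00166). The days did not overlap, as held for 21.4% of all tested genes in this direction. In the control culture Hspa5 was at 104 and 96.7 RPKM at day 7 and 90.9 and 103 RPKM at day 14. Herpud1, which serves ER-associated degradation, went from 25.8 and 22.0 to 85.5 and 82.8 RPKM. Hyou1, an ER chaperone of the heat shock protein superfamily, went from 20.04 and 23.0 to 43.9 and 39.1 RPKM. Derl3, a membrane protein of the same degradation route as Herpud1, went from 0.235 and 0.578 to 2.84 and 3.70 RPKM. Hspa5, Herpud1 and Hyou1 were called in the difference between the courses (differences 1.43, 1.29 and 1.30), while Derl3 missed the threshold (adjusted p = 0.0613).

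The lectin chaperones of glycoprotein folding did not follow. Calr was at 359 and 391 RPKM at day 7 and 411 and 336 RPKM at day 14 with overlapping days (log2 change -0.01, adjusted p = 0.973), and Canx was at 82.6 and 83.4 RPKM at day 7 and 73.5 and 64.2 RPKM at day 14 (adjusted p = 0.207). The ER stress element, CCAAT and CCACG held apart by a fixed spacer of any bases, lay in the 250 bases before the start of 9 of 19 members with a promoter (47.4%), against 0.166% of the 9039 tested genes. Members with the element included both genes that rose (Hspa5, Derl3, Syvn1 and Dnajc3) and genes that were not called (Hsp90b1, Pdia6, Calr, Canx and Creld2). One window of each kind is shown with the element in capitals, Hspa5 from chr2:34771840-34772089 on the plus strand and Calr from chr8:84846932-84847181 on the minus strand.
Hspa5: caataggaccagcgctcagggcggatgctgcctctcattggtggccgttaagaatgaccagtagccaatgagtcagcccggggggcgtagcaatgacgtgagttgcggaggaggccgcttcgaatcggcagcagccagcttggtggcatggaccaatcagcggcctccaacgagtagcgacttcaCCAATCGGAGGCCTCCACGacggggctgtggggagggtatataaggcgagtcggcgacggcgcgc
Calr: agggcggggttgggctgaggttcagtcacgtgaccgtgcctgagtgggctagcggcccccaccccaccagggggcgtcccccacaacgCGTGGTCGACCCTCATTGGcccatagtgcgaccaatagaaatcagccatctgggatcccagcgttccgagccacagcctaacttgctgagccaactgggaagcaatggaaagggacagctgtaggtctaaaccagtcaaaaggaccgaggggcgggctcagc
The element was in both windows, whereas the level rose for Hspa5 and not detectably for Calr. Here too the share with the element reflects the choice of the list and is no result of these libraries.

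Bone matrix genes rose. Of 14 tested bone matrix genes, 9 were higher and 0 lower with a median log2 change of 0.92, against 3 higher and 1 lower in the control culture (median 0.40). Their number of calls was 3 and 2 without day 7 replicate 1 and 2 and 7 and 2 without day 14 replicate 1 and 2. Osteocalcin, a mineral-binding protein secreted by mature osteoblasts, is encoded by near-identical genes whose reads can be exchanged. Bglap was at 61.1 and 67.7 RPKM at day 7 and 248 and 426 RPKM at day 14 (log2 change 2.32 ± 0.46 SE, adjusted p = 0.0149). Bglap2 was at 96.1 and 78.7 RPKM at day 7 and 454 and 604 RPKM at day 14 (log2 change 2.58, adjusted p = 0.0126). Both rose in the control culture too (log2 changes 3.12 and 2.97), and the courses did not differ detectably (adjusted p = 0.576 and 0.821).

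Ibsp, bone sialoprotein, was at 167 and 166 RPKM at day 7 and 393 and 373 RPKM at day 14 (log2 change 1.20 ± 0.14 SE, adjusted p = 0.00186), a rise far larger than the gap between replicates. Its control libraries were at 52.3 and 66.7 RPKM at day 7 and 66.2 and 63.4 RPKM at day 14. The difference between these courses missed the threshold (1.07 ± 0.19 SE, adjusted p = 0.0589). The chains of type I collagen, the main protein of bone, rose less on the log2 scale. Col1a1 went from 6252 and 6049.9 to 8936 and 9964 RPKM (log2 change 0.62, adjusted p = 0.044). Col1a2 went from 2696 and 2599 to 3941 and 4423 RPKM (log2 change 0.66, adjusted p = 0.0205). Spp1, osteopontin, an abundant phosphoprotein, was at 1380.0 and 1114 RPKM at day 7 and 2476 and 2472 RPKM at day 14 and did not overlap between days, but its change was not called (log2 change 1.00 ± 0.36 SE, adjusted p = 0.105).

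Osteocyte markers moved the same way, with 6 of 14 tested higher and 1 lower (median 0.38), against 2 and 0 in the control culture (median 0.53). Without day 7 replicate 2 only 3 were higher. Sost, which encodes the Wnt inhibitor sclerostin of mature osteocytes, was at 4.20 and 2.51 RPKM at day 7 and 12.7 and 17.7 RPKM at day 14 (log2 change 1.91 ± 0.34 SE, adjusted p = 0.0106). Its control libraries were at 3.59 and 8.66 RPKM at day 7 and 6.85 and 6.75 RPKM at day 14, where the days overlapped, and the difference between courses was not called (adjusted p = 0.16). Mepe, a matrix phosphoglycoprotein, went from 1.12 and 0.685 to 4.79 and 9.13 RPKM. Phex, a phosphate-regulating endopeptidase, went from 7.30 and 5.74 to 15.2 and 16.2 RPKM, and Dmp1, a phosphoprotein of the osteocyte matrix, from 85.5 and 86.2 to 139 and 170.1 RPKM. Ptprz1, a receptor phosphatase, and Fbln7, a fibulin, rose by 1.59 and 1.37 on the log2 scale. The potassium channel Kcnk2 was the member that fell (from 10.3 and 9.75 to 6.11 and 6.22 RPKM), a call that was lost without any 1 of the LAMZ libraries. Pdpn, a membrane protein of early osteocytes, was not called at 38.5 and 42.3 RPKM at day 7 and 28.4 and 27.7 RPKM at day 14 (adjusted p = 0.106).

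Enzymes and carriers of mineralization split, with 3 higher and 2 lower of 14 tested. Without any single LAMZ library 2 were higher and 0 lower. Alpl, tissue-nonspecific alkaline phosphatase, was at 200.1 and 188 RPKM at day 7 and 306 and 398 RPKM at day 14, without overlap, and narrowly missed the threshold (log2 change 0.84 ± 0.24 SE, adjusted p = 0.0523). Ank, a membrane protein for export of pyrophosphate, went from 8.90 and 5.75 to 21.3 and 29.1 RPKM (log2 change 1.66, adjusted p = 0.00288). Enpp1, which makes pyrophosphate, went from 0.640 and 0.805 to 1.60 and 2.88 RPKM (log2 change 0.89, adjusted p = 0.0489). In contrast Phospho1, a phosphatase of matrix vesicles, fell from 196 and 187 to 135 and 140.0 RPKM (adjusted p = 0.036) and Smpd3, a sphingomyelinase needed for mineralization, from 74.4 and 68.3 to 31.6 and 40.8 RPKM (adjusted p = 0.0394). Of the 8 fits that left out a library, Enpp1 was called in 0, Smpd3 in 2 and Phospho1 in 4.

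**Figure D3:**
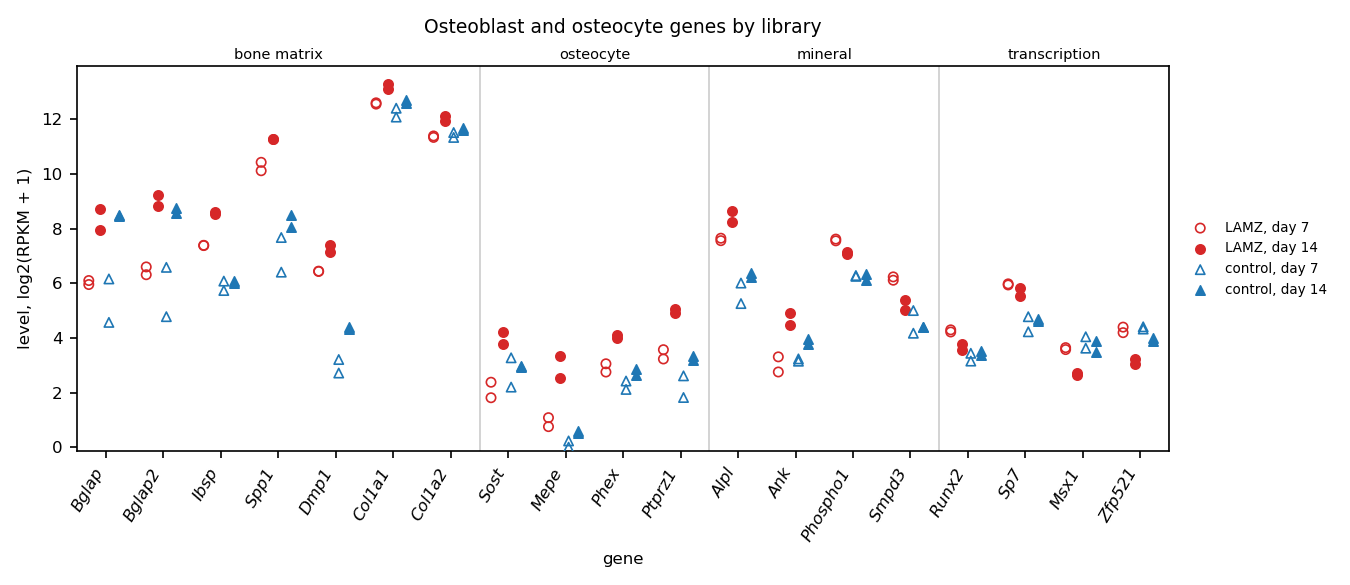
Level on the log2(RPKM + 1) scale (y axis) of bone matrix, osteocyte, mineralization and transcription factor genes (x axis) in each library, LAMZ as red circles and control as blue triangles, open at day 7 and filled at day 14. Matrix and osteocyte genes are higher at day 14 with LAMZ, whereas Phospho1, Smpd3, Runx2, Msx1 and Zfp521 are lower.

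Transcription factors of the osteoblast lineage fell in part. Of 15 tested, 5 were lower and 1, Atf4, was higher, with a median log2 change of -0.32 against 0.16 in the control culture. Under each of the 3 other scalings 2 were lower, and the median lay between -0.13 and -0.25. Without any single LAMZ library 1 member, Zfp521, was lower. Runx2, the master regulator of the lineage, was at 17.6 and 18.7 RPKM at day 7 and 10.7 and 12.6 RPKM at day 14 (log2 change -0.60 ± 0.14 SE, adjusted p = 0.0285). This fall was larger than the replicate gap but was no longer called without any 1 of the LAMZ libraries. Zfp521, a zinc finger protein that restrains Runx2, fell from 17.3 and 20.1 to 7.16 and 8.49 RPKM (log2 change -1.16, adjusted p = 0.00182) and was called in all 8 fits that left out a library. Msx1, a homeobox gene of cranial mesenchyme, fell from 11.5 and 10.9 to 5.23 and 5.50 RPKM, Dlx5, another homeobox gene, from 15.3 and 12.5 to 8.07 and 9.07 RPKM, and Tcf7, a Wnt effector, from 28.6 and 26.4 to 14.96 and 16.2 RPKM. Sp7 (osterix), which acts after Runx2, was at 60.4 and 62.2 RPKM at day 7 and 45.3 and 55.6 RPKM at day 14 (adjusted p = 0.339). Mef2c, a calcium-responsive factor the study examined, was at 16.8 and 13.7 RPKM at day 7 and 13.4 and 13.9 RPKM at day 14 (adjusted p = 0.558).

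Pth1r, the receptor of parathyroid hormone, rose from 138 and 105 to 217 and 245 RPKM (log2 change 0.94, adjusted p = 0.0137). Vdr, the vitamin D receptor, went from 6.02 and 6.01 to 12.2 and 18.2 RPKM (log2 change 1.18, adjusted p = 0.00889). The osteoclast-regulating cytokines that osteoblasts secrete also moved, with Tnfsf11 (RANKL) from 0.210 and 0.429 to 2.15 and 3.57 RPKM (log2 change 1.53, adjusted p = 0.00684). Csf1, needed for osteoclast precursors, went from 27.7 and 30.4 to 55.3 and 55.9 RPKM (log2 change 0.91, adjusted p = 0.00437). The decoy receptor Tnfrsf11b (osteoprotegerin), from 28.2 and 25.4 to 20.9 and 14.8 RPKM, was not called (adjusted p = 0.0632). None of these 5 genes was called in the difference between the courses.

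Other collagens went both ways, 6 of 33 higher (18.2%) and 7 lower (21.2%), against 5.1% and 9.26% of all tested genes. In the control culture 1 was higher and 3 were lower. Rises included Col15a1, a basement membrane collagen (from 2.33 and 2.48 to 10.4 and 10.7 RPKM), Col22a1, a collagen of tissue junctions (from 6.04 and 4.42 to 16.7 and 20.5 RPKM), and Col5a1, which nucleates collagen fibrils (from 400.4 and 390.0 to 626 and 665 RPKM). Falls included Col14a1, a fibril-associated collagen (from 15.2 and 16.8 to 5.87 and 5.46 RPKM), Col8a1 (from 429.9 and 517 to 273 and 246 RPKM), Col3a1 of soft connective tissue (from 575 and 629 to 390.4 and 400.1 RPKM) and Col12a1 (from 402 and 411 to 257 and 247 RPKM). Col14a1 stayed at 36.7 and 35.4 RPKM at day 7 and 37.6 and 37.9 RPKM at day 14 in the control culture, and the courses differed (difference -1.41 ± 0.15 SE, adjusted p = 0.0243). The number of collagens called was 4 and 2 without day 7 replicate 1 and 2, and 6 and 2 without day 14 replicate 1 and 2.

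Small leucine-rich proteoglycans, which bind collagen fibrils, fell in part, with 5 of 13 lower and 1 higher (median -0.38). Aspn, asporin, was at 161 and 154 RPKM at day 7 and 84.3 and 62.8 RPKM at day 14 (log2 change -1.10 ± 0.17 SE, adjusted p = 0.00616). Ogn and Omd, osteoglycin and osteomodulin, fell from 84.9 and 103 to 58.7 and 45.2 RPKM and from 27.5 and 21.2 to 11.4 and 12.7 RPKM. Omd rose in the control culture (from 9.08 and 8.09 to 17.6 and 17.1 RPKM), the direction opposite to that with LAMZ (difference -1.89, adjusted p = 0.0243). Lum (lumican) and Dcn (decorin) fell by 0.63 and 0.67 on the log2 scale, and Chad (chondroadherin) was the one that rose, from 1.12 and 1.26 to 2.86 and 3.41 RPKM. Without day 7 replicate 2 or day 14 replicate 2 only 2 members were lower.

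Of 23 matricellular and elastic fibre genes, 9 were lower and 2 higher (median -0.47), with 5 and 3 lower without day 7 replicate 1 and 2 and 5 and 3 without day 14 replicate 1 and 2. The elastic fibre genes Eln, elastin (from 149.6 and 171 to 51.9 and 52.7 RPKM), and Fbn2, fibrillin-2 (from 47.0 and 51.2 to 17.0 and 14.5 RPKM), fell with log2 changes of -1.60 and -1.59 and fell in the control culture as well (-1.12 and -1.31). The rises were Ctgf, a secreted YAP target, at 56.2 and 62.2 RPKM at day 7 and 238 and 221 RPKM at day 14 (log2 change 1.94, adjusted p = 0.000602), and Fn1, fibronectin (from 512 and 492 to 892 and 929 RPKM). Collagen processing enzymes had 7 of 29 lower (1 and 2 without day 7 replicate 1 and 2, 4 and 1 without day 14 replicate 1 and 2) and 1 higher. The rise was Loxl4, a lysyl oxidase (from 48.9 and 37.8 to 120.0 and 127 RPKM). The falls included the prolyl hydroxylases P3h2 (from 6.87 and 6.19 to 2.95 and 2.97 RPKM) and P4ha3 (from 33.4 and 32.9 to 19.3 and 15.6 RPKM) and the ER foldase Fkbp14 (from 18.0 and 17.8 to 9.26 and 8.94 RPKM). Serpinh1, the collagen chaperone, was not called at 1153 and 1149.8 RPKM at day 7 and 1382 and 1418 RPKM at day 14.

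Matrix proteases were mixed, with 3 of 26 higher (11.5%) and 4 lower (15.4%), against 5.1% and 9.26% of all tested genes. In the control culture 1 was higher and 1 lower. Mmp13, the collagenase of mature osteoblasts, was at 95.7 and 82.1 RPKM at day 7 and 299 and 354 RPKM at day 14 (log2 change 1.86 ± 0.22 SE, adjusted p = 0.0022). Timp3, an inhibitor of metalloproteases, went from 28.1 and 29.4 to 81.1 and 68.6 RPKM. Control libraries of Timp3 were at 72.1 and 61.5 RPKM at day 7 and 73.6 and 79.5 RPKM at day 14 (difference 1.15, adjusted p = 0.0496). Mmp9 rose from 1.72 and 1.90 to 3.92 and 8.62 RPKM. The metalloproteases Adamts4, Adamts7 and Mmp16 fell by 0.82, 0.88 and 0.60 on the log2 scale. Without single LAMZ libraries 0 or 1 members were lower and 2 or 3 higher.

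Genes of cell division fell together. Of 53 tested genes of the cell cycle and DNA replication, 40 were lower and 0 higher, and the median log2 change was -1.04. Without single LAMZ libraries 28 to 31 were lower. Kif11, a motor of the mitotic spindle, was at 6.37 and 6.97 RPKM at day 7 and 1.32 and 1.06 RPKM at day 14 (log2 change -1.81 ± 0.14 SE, adjusted p = 0.000552). Plk1, a mitotic kinase, was at 15.1 and 14.2 RPKM at day 7 and 3.43 and 4.19 RPKM at day 14 (log2 change -1.71, adjusted p = 0.000552). Ccna2, the cyclin of S and G2 phase, fell from 10.6 and 13.1 to 3.32 and 2.01 RPKM, although its exons overlap those of Exosc9 on the other strand. Ccnd1, the growth-factor-induced cyclin D1, did not follow at 55.3 and 60.9 RPKM at day 7 and 83.3 and 70.03 RPKM at day 14 (adjusted p = 0.121). The control culture showed 25 lower members and a median of -0.78, all 25 of them also lower with LAMZ, and limma called 0 in the difference between the courses (10 at an unadjusted p under 0.05). The cell cycle homology region TTTGAA lay before the start of 11 of 42 members with a promoter (26.2%), against 12.5% of tested genes.

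Replication-dependent histone genes, which are transcribed in S phase and whose mRNAs lack poly(A) tails, had 34 of 63 tested lower and 1 higher (median -1.06), against 24 lower in the control culture (median -0.81). Hist1h2bj was at 167 and 176 RPKM at day 7 and 24.1 and 32.3 RPKM at day 14 (log2 change -2.58 ± 0.23 SE, adjusted p = 0.000751). Hist1h2bf was at 64.1 and 63.3 RPKM at day 7 and 11.5 and 10.7 RPKM at day 14 (log2 change -2.42, adjusted p = 0.000381). Hist1h2bp fell from 85.4 and 76.4 to 5.59 and 8.70 RPKM, and its control libraries overlapped between days at 34.9 and 17.2 RPKM at day 7 and 17.7 and 25.4 RPKM at day 14 (difference -3.15, adjusted p = 0.0369). Hist1h4m held 5 and 13 reads at day 7 and none at day 14, at least 3.25-fold lower against a floor of 3 reads per library. These genes are near-copies of each other, so single members are uncertain. The member that rose was the linker histone Hist1h1c (from 116 and 123.2 to 153 and 205 RPKM, adjusted p = 0.0437). Other RNAs without poly(A) tails did not all move the same way. The Y RNAs Rny1 (from 5801 and 4403 to 1719 and 1739 RPKM) and Rny3 (from 7864 and 9033 to 4645 and 4442 RPKM) fell. Rn7sk did not, with 1.31% and 1.31% of the RPKM sum at day 7 and 1.60% and 1.88% at day 14. A part of the missing poly(A) tail in the histone result was not tested.

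Cholesterol synthesis fell nearly as a whole. Of 27 tested genes 23 were lower and 0 higher, with a median log2 change of -0.92 and 13 to 18 lower without single LAMZ libraries. Fdps, which makes farnesyl pyrophosphate, was at 63.5 and 77.5 RPKM at day 7 and 23.0 and 20.8 RPKM at day 14 (log2 change -1.64 ± 0.14 SE, adjusted p = 0.000745). Hmgcs1, the synthase at the entry of the pathway, was at 50.8 and 57.2 RPKM at day 7 and 18.0 and 20.1 RPKM at day 14 (log2 change -1.45, adjusted p = 0.000628). Srebf2, the factor that drives the pathway, fell from 25.4 and 27.0 to 15.3 and 17.9 RPKM (log2 change -0.63, adjusted p = 0.0147). Control libraries gave 20 lower members with a median of -0.93, all 20 shared with LAMZ, and limma called 0 in the difference (2 at an unadjusted p under 0.05). Fasn, fatty acid synthase, fell alongside (from 24.9 and 28.7 to 12.5 and 14.0 RPKM), in the control culture as well (from 28.9 and 29.8 to 12.7 and 13.6 RPKM). The sterol regulatory element TCACNCCAC was found before the start of 1 of 19 members with a promoter, Hmgcs1, against 1.27% of tested genes.

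**Figure D4:**
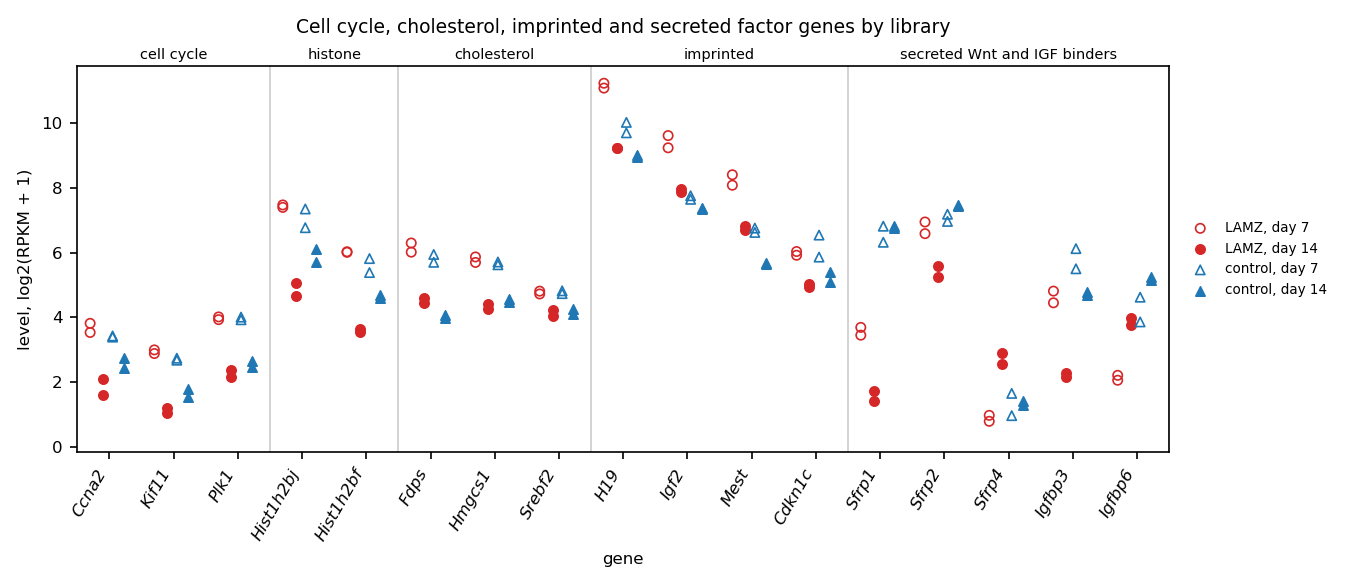
Level on the log2(RPKM + 1) scale (y axis) of cell cycle, histone, cholesterol, imprinted and secreted factor genes (x axis) in each library, LAMZ as red circles and control as blue triangles, open at day 7 and filled at day 14. Both cultures go down for the cell cycle and cholesterol genes, while Sfrp1 and Sfrp2 go down among the red circles and not among the blue triangles and Sfrp4 and Igfbp6 go up among the red circles.

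Imprinted growth genes, a group that is active in fetal tissue and declines with maturation, had 12 of 19 lower and 0 higher (median -0.76), and 7 lower in the control culture (median -0.51). Without day 7 replicate 2 the count was 7, and 8 without day 7 replicate 1 or day 14 replicate 2. H19, an abundant noncoding RNA, was at 2158 and 2394 RPKM at day 7 and 601 and 599 RPKM at day 14 (log2 change -1.92 ± 0.15 SE, adjusted p = 0.000552). Its neighbour Igf2, insulin-like growth factor 2, was at 601 and 780.4 RPKM at day 7 and 235 and 249 RPKM at day 14 (log2 change -1.50, adjusted p = 0.00101). Mest, a hydrolase-like protein, fell from 269 and 337 to 113 and 103 RPKM. Grb10, an adaptor that restrains insulin signalling, fell from 129 and 138 to 84.3 and 79.2 RPKM, and Cdkn1c, a cell cycle inhibitor, from 64.4 and 59.4 to 31.4 and 29.4 RPKM. In the control culture Igf2 was at 215 and 199 RPKM at day 7 and 163 and 164 RPKM at day 14, and its courses were not called different (difference -1.16 ± 0.21 SE, adjusted p = 0.0579).

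IGF system genes otherwise split, with 3 of 17 higher and 5 lower. The binding protein Igfbp3 fell from 20.8 and 27.0 to 3.83 and 3.47 RPKM (log2 change -2.41 ± 0.21 SE, adjusted p = 0.000745) and Irs1, an adaptor of the receptor, from 49.9 and 53.4 to 25.3 and 26.1 RPKM (log2 change -0.98, adjusted p = 0.00141). Igfbp6 rose from 3.16 and 3.62 to 14.8 and 12.5 RPKM (log2 change 1.74, adjusted p = 0.00338), while Igfbp2, another binding protein, was not called at 722 and 910.2 RPKM at day 7 and 648 and 592 RPKM at day 14. Without any single LAMZ library 3 members were lower.

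The Wnt pathway, which promotes bone formation, had 13 of 43 tested genes lower and 7 higher (median -0.35), against 1 and 1 in the control culture. Among secreted antagonists Sfrp1 was at 9.92 and 11.9 RPKM at day 7 and 1.65 and 2.30 RPKM at day 14 (log2 change -2.01 ± 0.19 SE, adjusted p = 0.000947). Sfrp2 was at 94.9 and 122 RPKM at day 7 and 37.0 and 47.1 RPKM at day 14 (log2 change -1.35, adjusted p = 0.0029). Neither was called in the control culture, where Sfrp1 was at 111 and 78.7 RPKM at day 7 and 111 and 107 RPKM at day 14. Both were called in the difference between courses (-2.22, adjusted p = 0.0268, and -1.73, adjusted p = 0.0369). Their relative Sfrp4 rose instead, from 0.729 and 0.965 to 6.44 and 4.90 RPKM (log2 change 1.85, adjusted p = 0.00311). The ligand Wnt7b fell from 2.71 and 3.09 to 0.350 and 0.835 RPKM, whereas Wnt4 (from 0.615 and 0.275 to 1.59 and 2.15 RPKM), Wnt5b (from 5.12 and 3.91 to 6.98 and 8.18 RPKM) and Wnt10b (from 8.24 and 7.73 to 12.6 and 14.7 RPKM) rose. Lgr6, a receptor for R-spondins, rose from 0.958 and 0.812 to 3.55 and 5.53 RPKM. Axin2, which promotes degradation of β-catenin, fell from 1.36 and 1.53 to 0.498 and 0.372 RPKM (log2 change -0.77, adjusted p = 0.0224), a call at low levels that was lost without any 1 of the LAMZ libraries. Nkd1, an inhibitor of Dishevelled, fell from 3.96 and 3.92 to 1.69 and 1.57 RPKM (log2 change -0.91, adjusted p = 0.00642). Without single LAMZ libraries, 3 to 6 Wnt genes were lower and 2 to 4 higher.

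BMP and TGF-beta genes showed 4 rises and 5 falls among 46 (8.70% and 10.9%), near the 5.1% and 9.26% of all tested genes. Gdf15, a stress-induced cytokine, went from 0.633 and 0.622 to 3.52 and 4.76 RPKM, and Bmp8a, a BMP ligand, from 5.75 and 4.63 to 12.7 and 15.2 RPKM. Tgfb1 went from 6.29 and 7.33 to 15.4 and 17.4 RPKM and also rose in the control culture (log2 change 1.10). Modulators of the pathway were among the falls, Fstl1 from 209.6 and 234 to 107 and 87.4 RPKM and the decoy receptor Bambi from 14.2 and 12.99 to 6.70 and 7.48 RPKM. Both day 14 control libraries of Bambi lay above both day 7 control libraries (2.999 and 3.95 RPKM at day 7 and 5.28 and 6.23 RPKM at day 14), and its courses differed (difference -1.45, adjusted p = 0.0369). In the FGF pathway 3 of 22 rose (13.6%) and 2 fell (9.09%, near the share of all tested genes). Rises included the growth factor Fgf7 (from 6.93 and 7.15 to 15.7 and 12.2 RPKM) and the effector Etv5 (from 5.37 and 5.43 to 8.07 and 8.84 RPKM). The falls were the bone ligand Fgf18 (from 2.37 and 3.23 to 0.867 and 1.21 RPKM) and the feedback inhibitor Spry1 (from 7.02 and 7.93 to 4.13 and 3.45 RPKM). Of 12 Notch genes, 1 was called (8.33%, against 14.4% of all tested genes), the ligand Jag1, which fell from 6.76 and 7.25 to 5.12 and 4.15 RPKM. Without day 7 replicate 2 there were 2 BMP and TGF-beta falls, and the FGF list gave 0 to 2 calls without any 1 LAMZ library. Jag1 was called only in the fit without day 14 replicate 1 among these 4.

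Immediate early and stress-responsive genes rose in part, with 8 of 23 higher and 1 lower (median 0.44). Without day 7 replicate 2 the number higher was 4, and without day 14 replicate 2 it was 5. Atf3, a stress factor downstream of ATF4, was at 1.52 and 0.535 RPKM at day 7 and 10.99 and 11.4 RPKM at day 14 (log2 change 2.63 ± 0.22 SE, adjusted p = 0.00064). Dusp1, a MAP kinase phosphatase, rose from 5.13 and 4.98 to 18.2 and 18.4 RPKM, and Ier2 from 3.70 and 4.54 to 13.6 and 13.2 RPKM, the latter more than in the control culture (difference 1.18, adjusted p = 0.0369). Jund rose from 27.8 and 28.2 to 58.2 and 69.5 RPKM and Myc fell from 42.3 and 46.3 to 27.3 and 28.2 RPKM, while Fos was not called at 3.59 and 3.18 RPKM at day 7 and 4.30 and 3.92 RPKM at day 14 (adjusted p = 0.297).

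Among 30 metallothionein and antioxidant genes 8 were higher and 1 lower, with 4 to 6 higher without single LAMZ libraries. The shares over all 8 libraries were 26.7% higher and 3.33% lower, against 5.1% and 9.26% of all tested genes, and in the control culture 4 members were higher and 0 lower. Mt1, a metallothionein, was at 3.20 and 3.08 RPKM at day 7 and 13.3 and 15.8 RPKM at day 14. Its relative Mt2 was at 0 and 0.326 RPKM at day 7 and 3.21 and 4.53 RPKM at day 14. Mt2 differed from its control course (difference 2.05, adjusted p = 0.0447). Hmox1, which degrades heme, rose from 26.6 and 23.5 to 67.3 and 79.1 RPKM with LAMZ and from 51.0 and 59.7 to 89.2 and 89.7 RPKM in the control culture. Txnip, a thioredoxin-binding protein induced by glucose, was the member that fell (from 8.43 and 14.4 to 4.70 and 3.99 RPKM).

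Glycolysis genes had 6 of 26 lower and 1 higher, including Eno1, enolase (from 319 and 331 to 185 and 203 RPKM), and Ldha, lactate dehydrogenase (from 348 and 376 to 235 and 221 RPKM). Pfkfb3, which makes the activator of phosphofructokinase, fell from 22.5 and 17.9 to 7.39 and 7.15 RPKM, and the lactate exporter Slc16a3 from 41.4 and 48.3 to 22.2 and 25.9 RPKM. The glucose transporter Slc2a1 rose from 28.2 and 22.6 to 37.2 and 41.8 RPKM and Gapdh was not called at 71.9 and 102 RPKM at day 7 and 109.8 and 118 RPKM at day 14. The number of falls was 1 or 2 without any single LAMZ library and 2 after rescaling to the same sum, with 3 rises. Of 16 hypoxia genes 1 was higher and 3 were lower (median -0.02), against 7 higher and 0 lower in the control culture (median 0.50). The number lower was 0 after rescaling to the same sum, 1 after centring on the median or quantile normalization, and 0 or 1 without single LAMZ libraries. Vegfa, the angiogenic growth factor, was the member that rose, from 36.8 and 32.7 to 59.9 and 64.2 RPKM, and it was not called without any 1 of the LAMZ libraries. Bnip3, a mitophagy receptor, fell from 84.9 and 77.7 to 60.6 and 55.4 RPKM with LAMZ while it rose from 24.8 and 28.2 to 47.9 and 50.7 RPKM in the control culture (difference -1.35, adjusted p = 0.0287).

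The study examined mitochondria, PGC-1α and calcium signalling, so those lists were read in full. None of 15 tested regulators of mitochondrial biogenesis was called by limma in the LAMZ course, and Ppargc1a, which encodes PGC-1α, lay below the filter with 6 and 4 reads at day 7 and 7 and 10 at day 14, so a change was not detectable at this depth. Among 81 nuclear respiratory chain genes 2 were higher and 5 lower (2.47% and 6.17%, against 5.1% and 9.26% of all tested genes). The rises were Cox6a2, a muscle-type subunit (none and none to 21 and 8 reads, at least 4.1-fold against 3 reads per library), and Cox8b (from 0.651 and 1.07 to 3.81 and 11.9 RPKM). The falls included Cox7b (from 40.0 and 45.5 to 24.4 and 19.6 RPKM), Ndufa4 (from 28.7 and 25.9 to 17.9 and 15.4 RPKM) and Uqcr11 (from 83.0 and 111 to 59.9 and 55.0 RPKM). All 13 genes of mitochondrial DNA missed the threshold, for example mt-Co2 at 506 and 567 RPKM at day 7 and 832 and 583 RPKM at day 14. In addition 2 of 78 mitochondrial and 3 of 82 cytosolic ribosomal protein genes were higher (2.56% and 3.66%), all by less than 1 on the log2 scale. Those counts were 8 and 13 after rescaling to the same sum, and 6 and 13 after centring on the median. At an unadjusted p under 0.05 there were 3 of the 15 regulators and 1 of the 13 mitochondrial DNA genes. Without any single LAMZ library no more than 3 genes of each of these lists were called.

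Calcium signalling genes showed 6 of 39 higher (15.4%) and 5 lower (12.8%), against 5.1% and 9.26% of all tested genes. In the control culture 2 were higher and 0 lower. Atp2a3, a calcium pump of the ER, went from 0.0444 and 0.145 to 1.62 and 1.59 RPKM, and the calcineurin subunits Ppp3cc and Ppp3ca went from 2.89 and 3.15 to 5.55 and 5.68 RPKM and from 6.38 and 6.76 to 10.7 and 11.7 RPKM. The voltage-gated channels Cacna1g and Cacna1c fell from 7.96 and 9.37 to 2.79 and 3.07 RPKM and from 3.12 and 3.12 to 1.39 and 1.80 RPKM, as did the calcineurin-dependent factor Nfatc4 (from 13.2 and 13.2 to 7.21 and 8.92 RPKM). With each library left out, the log2 change was 1.19 to 1.32 for Atp2a3, 0.67 to 0.77 for Ppp3cc and 0.63 to 0.74 for Ppp3ca. It was -1.40 to -1.19 for Cacna1g, -0.79 to -0.56 for Cacna1c and -0.79 to -0.52 for Nfatc4. The direction counts depended on the scaling, with 9 higher and 1 lower after rescaling to the same sum.

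Lysosomal genes had 7 of 45 higher (15.6%) and 1 lower (2.22%), against 5.1% and 9.26% of all tested genes. The control culture gave 7 higher and 1 lower as well, with a median log2 change of 0.37 against 0.16 with LAMZ. Rises included the cathepsins Ctsa (from 47.3 and 40.7 to 79.7 and 86.5 RPKM), Ctsf (from 15.4 and 14.8 to 26.7 and 30.9 RPKM) and Ctsl (from 19.5 and 17.5 to 35.0 and 28.3 RPKM), with 1 to 5 higher without single LAMZ libraries. Of 34 interferon-stimulated genes 3 were higher (8.82%, against 5.1% of all tested genes). They were Bst2 (from 8.57 and 8.50 to 22.6 and 20.6 RPKM), Isg20 (from 1.89 and 2.37 to 5.81 and 6.17 RPKM) and Ifi27 (from 23.2 and 24.5 to 39.5 and 35.5 RPKM). Complement genes of stromal cells had 4 of 14 higher (28.6%) and 1 lower (7.14%). In the control culture 7 were higher and 0 lower, with a median log2 change of 0.88 against 0.32 with LAMZ. Cd59a and Serping1, both complement inhibitors, went with LAMZ from 3.24 and 3.18 to 8.05 and 9.27 RPKM and from 7.77 and 9.82 to 17.3 and 17.7 RPKM. Without single LAMZ libraries 0 or 1 interferon-stimulated and 2 or 3 complement genes were higher. Among the lists with few calls, 3 of 21 chemokine and cytokine genes were higher and Cxcl14 lower. Of the 23 integrins and laminins 3 were higher, led by Itga7 (log2 change 1.44), and Itgav lower (-0.75), with 1 higher and 0 or 1 lower without single LAMZ libraries. Of the clock genes 1 of 17 was higher (5.88%, Per2, 0.81), and 1 of 14 snoRNA host genes was lower (7.14%, Snhg7, -1.95). These shares were near the 5.1% higher and 9.26% lower of all tested genes. Finally 2 of 11 genes listed under steroid and vitamin D response were higher, Vdr and Pth1r, although Pth1r is the receptor of parathyroid hormone and not of a steroid. With each library left out their log2 changes were 0.91 to 1.46 and 0.74 to 1.13. Without single LAMZ libraries 1 to 3 chemokine and cytokine genes and 0 clock genes were higher.

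Markers of other cell types were read to check what the cultures held. Macrophage and leukocyte genes were nearly absent from the LAMZ libraries on both days. The summed level of the 24 genes of the list found in the files was 11.6 and 9.80 RPKM at day 7 and 9.48 and 10.0 RPKM at day 14, and the defining genes C1qa, C1qb, Tyrobp and Mpeg1 were at 0 in all 4. Lyz2 made up most of it at 8.20 and 6.27 RPKM at day 7 and 5.99 and 5.29 RPKM at day 14. In the control culture the sum was 502 and 660.4 RPKM at day 7 and 1273 and 1277 RPKM at day 14, with 14 of 21 tested members higher. These genes passed the filter through the control libraries for the most part, so no change could be read from their LAMZ levels. Of the list C1qb and C1qc were called more negative with LAMZ in the difference between the courses (-1.44 and -1.20). Both were at 0 in all 4 LAMZ libraries and rose in the control culture, C1qb from 30.7 and 37.7 to 91.2 and 97.4 RPKM. The part of these cells in the other differences between the courses was not tested.

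Cartilage genes had 3 of 18 lower (16.7%, against 9.26% of all tested genes) and 1 higher (5.56%, against 5.1%). The control culture also gave 3 lower and 1 higher. Comp, a matrix protein of cartilage and tendon, was at 23.0 and 19.2 RPKM at day 7 and 137 and 184 RPKM at day 14 (log2 change 2.86 ± 0.16 SE, adjusted p = 0.00029). Hapln1 fell from 16.8 and 17.9 to 5.16 and 6.28 RPKM, Col9a1 from 23.6 and 25.5 to 15.7 and 17.3 RPKM, and Ihh by 1.05 on the log2 scale. Col2a1 had a log2 change of -0.57 that did not reach the threshold (adjusted p = 0.0848). Tendon genes gave Tnmd, tenomodulin, which fell from 93.8 and 107 to 58.5 and 41.6 RPKM. Cilp2 and the transcription factor gene Egr1 rose from 2.77 and 2.00 to 5.29 and 8.88 RPKM and from 0.837 and 1.16 to 2.33 and 3.29 RPKM. Among contractile genes 3 of 16 rose (18.8%, against 5.1% of all tested genes). They were Tagln (from 178 and 218 to 374 and 335 RPKM), Des (from 1.19 and 1.74 to 6.39 and 5.84 RPKM) and Myh11 (from 4.28 and 4.78 to 8.17 and 7.41 RPKM). Acta2, smooth muscle actin, was not called at 1061 and 1327 RPKM at day 7 and 1588 and 1495 RPKM at day 14. Of 33 striated muscle genes 6 were tested. Acta1, skeletal muscle actin, rose from 1.98 and 3.62 to 22.8 and 18.5 RPKM, and Tnnt3, a fast troponin, fell from 3.11 and 3.88 to 1.41 and 1.04 RPKM. Of 16 progenitor and pericyte genes Nes, Mcam and Cspg4 rose (from 1.39 and 1.32 to 6.25 and 6.77 RPKM, from 2.17 and 3.95 to 7.78 and 9.48 RPKM and from 24.8 and 23.9 to 48.3 and 58.5 RPKM). Pdgfra, Prrx1 and Ebf3 fell (from 9.94 and 9.86 to 4.50 and 5.31 RPKM, from 27.6 and 30.3 to 17.5 and 16.9 RPKM and from 1.76 and 1.89 to 1.03 and 0.748 RPKM). Of 7 tested osteoclast markers those other than Mmp9 were not called, with Ctsk at 85.4 and 90.4 RPKM at day 7 and 119 and 101 RPKM at day 14. Of 17 adipocyte genes Plin4 and Pparg rose (from 0.365 and 0.731 to 2.05 and 2.98 RPKM and from 2.14 and 1.56 to 3.19 and 3.75 RPKM) and Fasn, described above, fell. Pparg was called in 2 of the 8 fits, and leaving out single LAMZ libraries left 0 or 1 higher and 1 lower. Adipoq was at 0 in 2 of the 4 LAMZ libraries and Cd36 in all 4. When single LAMZ libraries were left out, 1 or 2 cartilage genes were lower, 0 to 2 tendon genes, 1 or 2 contractile genes and 0 or 1 striated muscle genes were called, and 1 to 3 progenitor and pericyte genes went each way. Of the genes named here Comp, Hapln1, Des, Nes and Pdgfra were called in all 8 fits that left out a library. Of 14 Schwann cell and neuronal genes 2 were tested and neither was called. No endothelial gene was called by limma, and 0 of 4 tested had an unadjusted p under 0.05.

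The largest single rise with LAMZ was outside these programs. Cdsn, corneodesmosin, an adhesion protein of the epidermis, was at 0.613 and 1.15 RPKM at day 7 and 72.5 and 45.2 RPKM at day 14 (log2 change 4.97 ± 0.25 SE, adjusted p = 0.000233). Of 20 epithelial genes 4 were tested, and 2 rose, Cdsn and Trp63 (log2 change 0.83). The keratinocyte genes Krt1, Krt5, Krt10, Krt14, Lor and Ivl were below the filter. In the control culture Cdsn stayed at 1.58 and 2.59 RPKM at day 7 and 1.46 and 1.57 RPKM at day 14, and the difference between courses was 5.24 ± 0.36 SE (adjusted p = 0.00587).

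Avil, advillin, an actin-binding protein, was at 1.59 and 1.07 RPKM at day 7 and 27.9 and 19.9 RPKM at day 14 (log2 change 3.41 ± 0.19 SE, adjusted p = 0.00029). Its control libraries were at 1.64 and 1.36 RPKM at day 7 and 0.986 and 1.24 RPKM at day 14 (difference 3.65, adjusted p = 0.00587). Its exons overlap those of Tsfm on the other strand, and Tsfm itself was at 3.15 and 4.30 RPKM at day 7 and 5.20 and 3.39 RPKM at day 14 in the LAMZ libraries (adjusted p = 0.688). Car6, a secreted carbonic anhydrase, went from 0 and 0.106 to 9.06 and 6.65 RPKM. Gpr84, a receptor for medium-chain fatty acids, and Gstp2, a glutathione transferase, were listed at 0 at day 7. At day 14 they were at 4.65 and 5.02 RPKM and 13.1 and 20.2 RPKM. Gstp2 is a close copy of Gstp1 (99.1 and 115 RPKM at day 7 and 125 and 119 RPKM at day 14). Among the largest falls were Crabp1, a retinoic acid binding protein, at 44.4 and 51.7 RPKM at day 7 and 4.28 and 3.32 RPKM at day 14 (log2 change -3.36, adjusted p = 0.000824), and Ndnf, a secreted neurotrophic factor. Ndnf was at 12.8 and 12.3 RPKM at day 7 and 1.92 and 1.62 RPKM at day 14 (log2 change -2.29, adjusted p = 0.000381). Zbed6 fell from 7.59 and 7.82 to 1.51 and 0 RPKM, and its exons overlap those of Zc3h11a on the same strand.

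**Figure D5:**
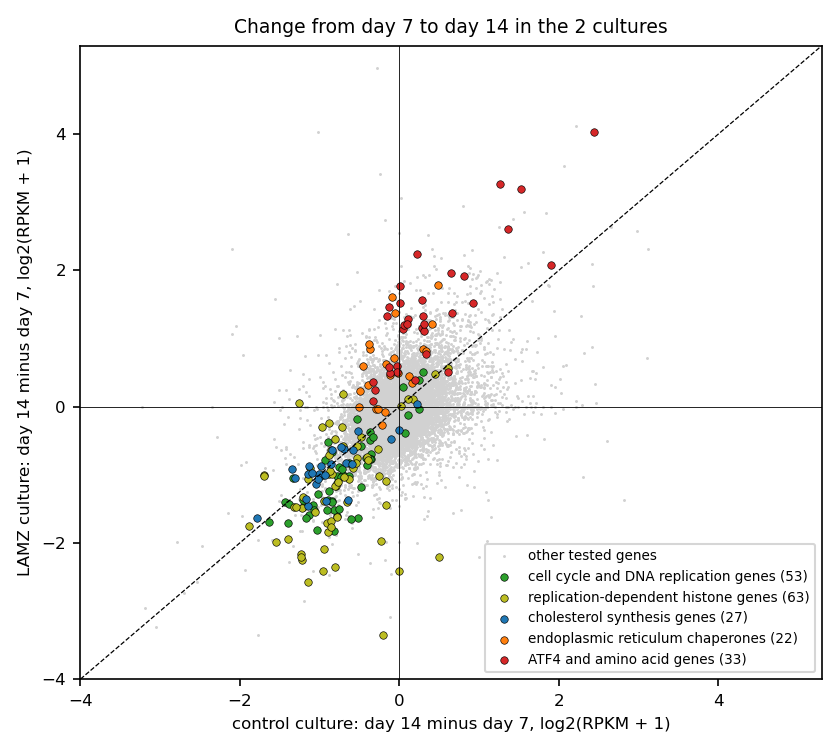
Change from day 7 to day 14 on the log2(RPKM + 1) scale in the LAMZ culture (y axis) against the control culture (x axis), 1 point for each of the 12514 tested genes, with 5 gene lists coloured and the line of equal change dashed. Of the ATF4 and amino acid genes 32 of 33 lie above the line and of the ER chaperones 21 of 22, against 13 of 27 cholesterol, 9 of 53 cell cycle and 17 of 63 histone genes.

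The control course, which shares no library with the LAMZ course, was used to ask where the courses differ. It had 308 genes higher (2.46% of those tested) and 300 lower (2.4%), together 4.86%. Of the 638 genes higher with LAMZ, 117 were higher and 1 lower in the control culture, and of the 1159 lower with LAMZ, 197 were lower and 8 higher. The difference between the courses was called for 78 genes (0.623%), 39 more positive (0.312%) and 39 more negative (0.312%) with LAMZ.

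Those 78 calls rested on every library. Without day 7 control replicate 1 and 2 there were 21 and 3, and without day 7 LAMZ replicate 1 and 2 there were 2 and 1. Without day 14 control replicate 1 and 2 there were 5 and 0 (1949 and 1699 genes at an unadjusted p under 0.05), and without day 14 LAMZ replicate 1 and 2 there were 2 and 2. Cdsn was called in 7 of these 8 fits and Avil in 6. With day and replicate number paired within each culture the count was 1, Avil. Among the genes more positive with LAMZ than in the control culture were stress genes already described and Eif4ebp1, an inhibitor of translation initiation (1.31). Others were Got1, which makes aspartate (1.09), and Nes, an intermediate filament of progenitors (1.25). Further genes outside the stress lists were called more positive and are not all reported here by name. More negative was Sgms2, a sphingomyelin synthase (-1.96), which went from 62.9 and 56.9 to 17.4 and 19.5 RPKM with LAMZ and from 13.8 and 23.8 to 21.6 and 23.9 RPKM in the control culture. Thbs4, thrombospondin-4, was also more negative (-2.02). It was not called with LAMZ (4.70 and 4.67 RPKM at day 7 and 3.65 and 2.93 RPKM at day 14) and rose in the control culture (from 2.98 and 3.07 to 12.3 and 10.3 RPKM). Clec4n (-1.89) and Mir758 (3.23) were at 0 in all LAMZ libraries, so their differences came from the control culture alone. There Clec4n went from 1.49 and 2.64 to 10.6 and 9.81 RPKM and Mir758 from 9.82 and 7.13 to 0 and 0 RPKM.

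Exons of further named genes overlap other genes, so their reads may be shared where strand was not used in counting, which the sources used here do not state. These include Slc6a9 with Ccdc24, Psph with Cct6a, Phospho1 with Abi3 and Zfp652, Mest with Copg2, Timp3 with Syn3, Gpr84 with Gm49482, Aars with Exosc6, Irs1 with Gm9747 and Runx2 with Runx2os1.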

How the data were processed

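RNA sequencing libraries of total RNA (Maxwell 16 LEV simplyRNA kit, Ion Proton) came from LAMZ and control cultures at day 7 and day 14, 2 per group. The authors mapped reads with CLC Genomics Workbench (version not given in the sources used here) to mm10, per the submitters' processing notes, and deposited RPKM per gene. Strand use in counting is not given in the sources used here. The column of one day 7 LAMZ file carries another name, and its sample was taken from the record that ties files to samples.

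From 51826 entries, 4 whose symbols had become dates were dropped. Genes with at least 1 RPKM in at least 2 of 8 libraries (12514) were fitted as log2(RPKM + 1) in limma 3.58.1 (R 4.3.3) with 4 groups and a mean-variance trend. Contrasts were tested two-sided with Benjamini-Hochberg adjustment over all 12514 genes at 0.05, and all adjusted p-values are from this fit. A fold change on this scale understates the change of low genes. All 8 libraries shared 1 estimate of the spread. The steps between low RPKM values gave mapped reads per library, 3463538 to 5832101 in all, with 93.4% to 95.3% of the values checked within 0.02 of a whole read. Floors are 3 reads per library and cover counting error only. The fit was tested on simulated data.

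The members and the gene lists were chosen with earlier results of these data known. Named genes were the 12 largest rises and 12 largest falls past the threshold, the genes the study names, the 3 largest rises and falls and the 2 most abundant genes of each list, the 6 largest differences between the courses in each direction, and the 6 most abundant called genes. Other genes named were chosen after their values were seen. Same-numbered replicates did not deviate together (correlation of deviations -0.03 in the LAMZ and 0.06 in the control culture), and no pairing was used in the main fit. A correlation over all tested genes does not exclude pairing. Alternatives were another pseudocount, other filters, 3 other scalings, no trend, the libraries of the culture alone, a replicate block, each library left out, and, chosen after seeing the data, a same-sum scaling without small structural RNAs. Leaving out a LAMZ library leaves a single library in its group, which by itself widens the error of the comparison. Promoters are RefSeq sequences of GRCm38.p6, searched on both strands. Each motif was searched in a list chosen for the pathway it serves, so the shares describe the lists and not the changes measured. Gene overlaps are from GENCODE M21. Some genes of the lists are counted but not reported here by name.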

Additional observations from a re-analysis of the deposited data

Results flagged for a closer look

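Of the genes named in the text and above 0 in some LAMZ library, 33 had a day 7 to day 14 change that differed between the cultures. This was limma's test of the difference between the LAMZ and the control culture itself. Values are the LAMZ change minus the control change on the log2(RPKM + 1) scale. Amino acid and stress response genes were more positive with LAMZ, Asns (1.31), Atf4 (1.04), Atf5 (1.25), Eif4ebp1 (1.31), Got1 (1.09), Nupr1 (1.67), Phgdh (1.59), Slc1a5 (1.28), Slc6a9 (2.14), Slc7a3 (2.02) and Wars (1.48), as were the ER genes Herpud1 (1.29), Hspa5 (1.43) and Hyou1 (1.30). Other genes more positive with LAMZ were Avil (3.65), Car6 (3.04), Cdsn (5.24), Gpr84 (2.55), Ier2 (1.18), Mt2 (2.05), Nes (1.25) and Timp3 (1.15). Genes of secreted, matrix and membrane proteins and Sgms2 were more negative, Bambi (-1.45), Col14a1 (-1.41), Ndnf (-1.92), Omd (-1.89), Sfrp1 (-2.22), Sfrp2 (-1.73), Sgms2 (-1.96) and Thbs4 (-2.02), as were Bnip3 (-1.35), Hist1h2bf (-1.46) and Hist1h2bp (-3.15). The more negative calls also held C1qb, C1qc, Clec4n and Fcrls, which were at 0 in all LAMZ libraries and rose in the control culture.

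These calls depended on single libraries. Of all tested genes 78 were called, and between 0 and 21 without 1 library, the 0 being the fit without day 14 control replicate 2. Cdsn was called in 7 and Avil in 6 of those 8 fits.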

How the results depend on the processing

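In the LAMZ course 1797 genes were called by limma, 638 higher and 1159 lower. Without a filter on low values there were 1091 calls, 662 of them lower. Rescaling to the same sum gave 966 higher and 556 lower. With the replicate number as a block within the culture, 1150 were called and 703 were lower. Leaving out each library gave 488 to 1890 calls, 205 to 675 higher and 270 to 1215 lower. The control course, 608 calls, gave 203 without a filter, 1135 after rescaling to the same sum, 221 with the replicate block within the culture, 0 with the libraries of the culture alone (2184 genes at an unadjusted p under 0.05) and 69 to 453 with each library left out. The 78 differences between the courses became 34 with a pseudocount of 0.1, 166 with 5, 0 without a filter (2931 genes at an unadjusted p under 0.05), 133 with at least 5 RPKM, 30 without the trend, 17 with a replicate block across all groups, 1 with the block within each culture and 0 to 21 with each library left out. The culture alone gives no such difference. By direction, control calls higher went from 308 to 192 with a pseudocount of 0.1, and of the differences the 39 more positive went to 69 after centring on the median and 61 after quantile normalization, and the 39 more negative to 60 after rescaling to the same sum. The remaining totals stayed within 1.5 times. The labels do not say whether the replicate numbers pair the libraries, so the counts with and without the block both stand.

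The sign turned for 3 genes that were not called. Calr moved to 0.19 after rescaling and 0.091 after centring on the median, and lay between -0.16 and 0.13 with each library left out. Mef2c moved to 0.043 after rescaling, and Tsfm lay between -0.10 and 0.40 with each library left out. Of 206 called genes named in the text or its lists, 93 were called with every library left out in turn. The cause of these changes was not tested. With 2 libraries a group and 4265037 to 5832101 mapped reads, changes of genes near 1 RPKM are the least certain.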
